A study of Homo sapiens with 12 samples.

Results

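The 10 listed introns of TRIB3, GTPBP2, P4HB, RBCK1, NBPF1, THRA and SUMF1 are described here, in HCT116 colon cancer cells without MTAP that were treated with AGI24512. These genes were chosen because an intron took a larger share of its gene's reads with the drug while the intron itself had fewer reads. They hold 10 of the 1549 introns in the authors' deposited MTAP-null table, and 7 of its 1287 gene entries. The members were chosen by the read count and the usage value of this contrast, so their MTAP-null values are given as a description and without a test. By the sign of the log2 difference the wording holds for 9 of the 10 introns. The exception is P4HB E014, whose read count was higher with AGI24512. The AGI24512 and DMSO libraries overlapped in P4HB E014, in THRA E011 (-0.10, standard error 0.14) and in GTPBP2 E004 (-0.20, standard error 0.32). The log2 differences of the read count ran from -1.18 in NBPF1 to -0.10 in THRA E011, with P4HB E014 at 0.80.

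HCT116 is an established human colon cancer line, engineered to lack MTAP (MTAP-null) and set beside MTAP-WT cells of the line. MTAP is the enzyme that salvages methionine from methylthioadenosine. AGI24512 inhibits MAT2A, which makes S-adenosylmethionine, the methyl donor of the cell. The groups were MTAP-null cells with AGI24512, MTAP-null cells with the solvent DMSO, MTAP-WT cells with AGI24512 and MTAP-WT cells with DMSO, each with 3 libraries of poly-A RNA (12 in all). The labels state neither dose nor duration. They do not tell whether replicate libraries were grown as independent cultures, so p-values measure the spread between libraries, which may be technical. Nothing in the labels tells whether the MTAP-null cells are a single clone.

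A detained intron stays in a transcript that is already polyadenylated, and such a transcript remains in the nucleus until the intron is removed or the RNA decays. The share of a gene's reads that falls in the intron, its usage, can go up because the intron gains reads or because the rest of the gene loses more reads than the intron does. Splicing depends on methylated proteins, since arginine methylation of Sm proteins, which uses S-adenosylmethionine, takes part in the assembly of spliceosomal particles.

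The 7 genes serve different functions. TRIB3, a pseudokinase, and GTPBP2, a GTPase that in mice works with the ribosome rescue factor Pelo, are linked to the integrated stress response. P4HB, or protein disulfide isomerase, and SUMF1, which converts a cysteine of sulfatases into formylglycine, act in the endoplasmic reticulum. RBCK1, also called HOIL-1, is a subunit of the linear ubiquitin ligase complex in TNF signalling. THRA encodes thyroid hormone receptor alpha, and NBPF1 belongs to a primate-expanded family of near-identical repeats, so reads of NBPF1 could be split among its copies in a way that the sources used here do not state.

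The introns are named by gene and by the feature number of the authors' table. Coordinates are those of the deposited tables, and the build is not stated there. They are read as GRCh38 because 1068 of the 1549 MTAP-null introns (68.9%) have exactly the boundaries of an intron in GENCODE 29. Of the 10 member introns, 5 do. The splice boundaries of those whose bases GENCODE 29 transcripts cover are shown so that the ends of the measured features can be compared with splice-site letters. In each 30-base line the first 6 bases of the feature (5′ boundary) or its last 3 bases (3′ boundary) are in capitals, from GENCODE 29 transcripts on the strand of the gene.
THRA E011 5′ boundary, chr17:40089325-40089354, plus strand: ctgatgaagGTGACTgacctccgcatgatc
RBCK1 E006 5′ boundary, chr20:410629-410658, plus strand: gttcgcttgGTAAGGgaagggaagagaatg
P4HB E014 5′ boundary, chr17:81859864-81859893, minus strand: gtccctgggGTGGGAaccttgtgcctgaca
P4HB E014 3′ boundary, chr17:81859379-81859408, minus strand: gcatctcatttccgcttcCAGatgcccctt
P4HB E004 3′ boundary, chr17:81845222-81845251, minus strand: actcatccctgtcttccaCAGgtcattgat
GTPBP2 E010 5′ boundary, chr6:43625342-43625371, minus strand: aagggagagGTGCATgggatcaatgggacc
GTPBP2 E010 3′ boundary, chr6:43625054-43625083, minus strand: gggccctgggccctgggcCAGgtggtgaat

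Each 5′ boundary begins with GT and each 3′ boundary ends with AG, the usual letters of splice sites. The join between THRA E011 and THRA E012 carries no such letters, since the table cuts a single intron there.
THRA E011 3′ boundary, chr17:40090017-40090046, plus strand: tgaagaaaaactagacagAGAgaaaaatac
THRA E012 5′ boundary, chr17:40090029-40090058, plus strand: agacagagaGAAAAAtacaaaaaagagaga

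GTPBP2 E010 is the shortest member that is a whole intron, and its 300 bases are given in full as an example of the measured unit (chr6:43625063-43625362, minus strand). The first 6 and last 3 bases are in capitals. GENCODE 29 holds the same bases as exon in the processed transcript GTPBP2-209, which keeps the intron.
GTPBP2 E010: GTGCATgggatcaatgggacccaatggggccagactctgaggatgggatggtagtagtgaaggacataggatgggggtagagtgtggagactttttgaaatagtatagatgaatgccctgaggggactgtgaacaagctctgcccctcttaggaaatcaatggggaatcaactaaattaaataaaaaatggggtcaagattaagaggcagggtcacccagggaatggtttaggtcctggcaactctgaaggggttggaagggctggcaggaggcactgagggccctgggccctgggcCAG

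The size of the libraries is known only from the listed introns. Summed counts over the MTAP-null introns were between 113064 and 214530 per library, and over the MTAP-WT introns between 50919 and 65080, which is not sequencing depth. The size factors recovered from the deposited base means lay between 0.859 and 1.14 in MTAP-null libraries and between 0.953 and 1.09 in MTAP-WT libraries. Of 16 marker genes of epithelium, fibroblasts and leukocytes, KRT8, an epithelial keratin, had a listed intron in MTAP-null cells. It averaged 95.8 normalised counts with AGI24512 and 164.9 with DMSO, with a usage log2 value of -0.65 in the authors' deposited table, and the tables give no level for the other markers. In MTAP-null cells edgeR called 1202 of 1549 introns as risen with AGI24512 (77.6%) and 72 as fallen (4.65%). The median log2 change was 0.95, or 0.11 with TMM scaling on the listed introns, which lowers the table by 0.85 (log2) as a whole. The member introns had a median of -0.43, or -1.26 with TMM scaling.

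TRIB3 is induced by the transcription factors ATF4 and CHOP and binds the kinase AKT. Its listed intron, E005, is intron 2 of 4 in TRIB3-202 (chr20:382627-388010, 5384 bp) and holds 281 bp of an exon of TRIB3-204. It had 78.8, 78.2 and 107.2 normalised counts with AGI24512, against 144.2, 198.2 and 153.6 with DMSO. All AGI24512 libraries lay below all DMSO libraries. In bulk RNA, fewer cells that express a gene and less RNA per cell cannot be told apart. The means were 88.1 ± 16.5 with AGI24512 and 165.3 ± 28.8 with DMSO (SD, n = 3 each), a ratio of 0.533 and a log2 difference of -0.90 (standard error 0.19). Its usage was higher all the same, with a log2 value of 0.50 in the authors' deposited table.

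GTPBP2 had 2 listed introns, both whole introns of GTPBP2-201. E010, intron 5 of 11, had 38, 54.4 and 50.3 normalised counts with AGI24512 and 69.0, 79.7 and 57.0 with DMSO. The groups did not overlap, though the highest AGI24512 library and the lowest DMSO library were close. E004, intron 9 of 11 (chr6:43622805-43623736, 932 bp, 662 bp of which GENCODE 29 also lists as exon), had 15.8, 26.1 and 30.8 with AGI24512 and 22.7, 38.9 and 20.95 with DMSO. These groups overlapped, and E004 had the lowest counts of all members.

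The log2 differences were -0.54 (standard error 0.22) for GTPBP2 E010 and -0.20 (standard error 0.32) for GTPBP2 E004. The E004 value was 0.05 without AGI24512 replicate 1 and 0.14 without DMSO replicate 2, so its place among the introns with fewer reads rests on those libraries. Usage was higher for both in the authors' deposited table, with log2 values of 0.42 for E010 and 0.60 for E004. Of the reads that fell in either intron, E004 took 33.2% ± 4.37 with AGI24512 and 28.1% ± 4.16 with DMSO (SD, n = 3 each), a difference of 5.07 percentage points with overlapping libraries.

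P4HB, which forms and shuffles disulfide bonds and is also the beta subunit of collagen prolyl 4-hydroxylase, had its 2 introns on opposite sides of zero. E004 is the 3′ part of intron 9 of 10 in P4HB-201 (chr17:81845231-81845459, 229 bp), and 226 bp of it are exon in the retained-intron transcript P4HB-208. It had 402.2, 410.5 and 400.7 normalised counts with AGI24512 and 523.4, 538.2 and 582.0 with DMSO, without overlap. The means were 404.5 ± 5.25 with AGI24512 and 547.9 ± 30.5 with DMSO (SD, n = 3 each). That is a log2 difference of -0.44 (standard error 0.10), beside a usage log2 value of 0.13 in the authors' deposited table, the lowest usage value of the 10.

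P4HB E014 is the 3′ part of intron 1 of 10 in P4HB-201 and intron 1 of the processed transcript P4HB-206 (chr17:81859388-81859884, 497 bp). It had 84.3, 141.7 and 210.6 normalised counts with AGI24512 and 70.8, 98.1 and 82.6 with DMSO. The groups overlapped, and AGI24512 replicate 3 was the highest of all 6 libraries. The log2 difference was 0.80 (standard error 0.27), and 0.42 without AGI24512 replicate 3. With TMM scaling it was -0.07. Its usage log2 value of 0.75 in the authors' deposited table was the highest of the 10. Of the reads in either P4HB intron, E014 took 17.3%, 25.7% and 34.5% in the AGI24512 libraries and 11.9%, 15.4% and 12.4% in the DMSO libraries, so every AGI24512 library was above every DMSO library.

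SUMF1 activates all human sulfatases. E006 spans 292399 bp (chr3:4068746-4361144) inside intron 8 of 12 of SUMF1-204, a transcript annotated for nonsense-mediated decay, and was the widest feature of the table. It contains the whole SETMAR gene on the other strand, with 3567 bp of SETMAR exons, and the sources used here do not say whether reads were counted by strand, so SUMF1 and SETMAR reads cannot be told apart. The feature had 620.0, 630.4 and 664.4 normalised counts with AGI24512 and 763.7, 758.7 and 740.3 with DMSO, without overlap. The means were 638.3 ± 23.2 with AGI24512 and 754.2 ± 12.3 with DMSO (SD, n = 3 each), and the log2 difference was -0.24 (standard error 0.091). Its usage log2 value was 0.16 in the authors' deposited table.

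RBCK1 E006 lies within the first intron of RBCK1-201 (chr20:410638-411248, 611 bp), and 127 bp of it are exon in other RBCK1 transcripts. Its first bases are those of a splice donor, but no GENCODE 29 intron begins or ends at its boundaries. It had 419.8, 426.3 and 406.3 normalised counts with AGI24512 and 879.9, 822.9 and 855.5 with DMSO. The groups lay far apart, with means of 417.5 ± 10.2 with AGI24512 and 852.8 ± 28.6 with DMSO (SD, n = 3 each). The ratio was 0.490 and the log2 difference -1.03 (standard error 0.095), beside a usage log2 value of 0.17 in the authors' deposited table. RBCK1 follows TRIB3 on the same strand of chromosome 20, with 9938 bp and no other gene wholly between them in GENCODE 29.

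THRA makes 2 main receptor forms by a choice at its last intron. THRA-203, of 410 codons, ends within the exon that reads on past the splice donor, and encodes the hormone-binding form TRα1. THRA-201 and THRA-202, of 490 codons, splice from that donor to a last exon downstream and encode TRα2, which does not bind thyroid hormone. E011 (chr17:40089334-40090037, 704 bp) and E012 (chr17:40090038-40093019, 2982 bp) together are exactly intron 9 of 9 of the TRα2 transcripts, 3686 bp. The same bases are for the most part the last exon of THRA-203, with 120 coding bases in E011. A higher usage of these features can thus be a detained intron or the TRα1 form, and the tables do not tell them apart.

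E011 had 228.0, 221.1 and 199.4 normalised counts with AGI24512 and 238.5, 223.4 and 231.6 with DMSO. These groups overlapped, with a log2 difference of -0.10 (standard error 0.14), the smallest of the 10. It was -0.04 without AGI24512 replicate 3, -0.14 without AGI24512 replicate 1 and -0.93 with TMM scaling. E012 had 873.9, 826.6 and 733.4 with AGI24512 and 1083.5, 1069.6 and 1093.0 with DMSO, without overlap. Its log2 difference was -0.42 (standard error 0.090). The last 233 bp of E012 overlap an exon of NR1D1, a clock repressor gene transcribed from the other strand, and without the strand of counting the reads of the 2 genes cannot be told apart there. In the authors' deposited table the usage log2 values were 0.43 for E011 and 0.27 for E012.

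The split between the 2 THRA features differed between the groups. E011, the part next to the donor, took 20.7%, 21.1% and 21.4% of their summed reads in the AGI24512 libraries and 18.04%, 17.3% and 17.5% in the DMSO libraries. All AGI24512 libraries were above all DMSO libraries, with means of 21.1% ± 0.347 with AGI24512 and 17.6% ± 0.395 with DMSO (SD, n = 3 each). The difference was 3.45 percentage points. It needs no scaling between libraries, but usage of both features entered the choice of the gene, so no test is given.

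NBPF1 had the lowest read-count difference of the 10. E036 is intron 2 of 28 in NBPF1-203 and NBPF1-204 (chr1:16595010-16608507, 13498 bp), and 6019 bp of it are exon in other NBPF1 transcripts. It had 609.8, 669.0 and 692.4 normalised counts with AGI24512 and 1563.2, 1489.3 and 1424.7 with DMSO, without overlap. The means were 657.1 ± 42.6 with AGI24512 and 1492.4 ± 69.3 with DMSO (SD, n = 3 each), a ratio of 0.440 and a log2 difference of -1.18 (standard error 0.086). Its usage log2 value was 0.24 in the authors' deposited table.

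**Figure D1:**
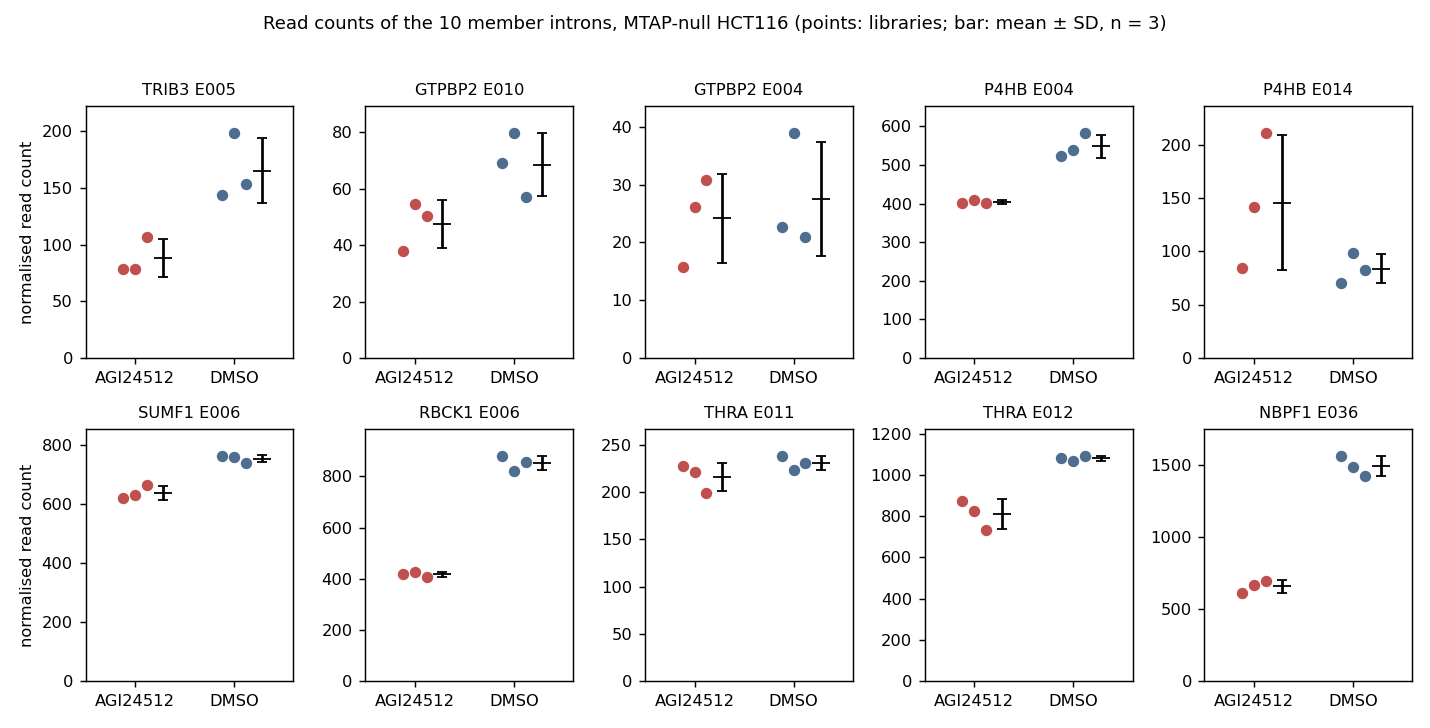
Normalised read count (deposited count divided by the size factor of its library) of each of the 10 introns in MTAP-null cells, AGI24512 left and DMSO right. Points are the 3 libraries in replicate order, and the cross with whiskers is the mean ± SD. In 7 panels every AGI24512 library lies below every DMSO library, GTPBP2 E004, P4HB E014 and THRA E011 overlap, and P4HB E014 has the higher AGI24512 mean, 145.6 against 83.8 with DMSO.

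In all, 7 of the 10 introns had every AGI24512 library below every DMSO library, 3 overlapped, and 0 lay the other way. Over the table, 80 of 1549 introns (5.16%) had all AGI24512 libraries below all DMSO libraries and 1175 (75.9%) had them all above. Since a lower read count was part of the rule, nothing is read from this count. The plot of usage against read count shows how far the members stand from the diagonal along which most of the table lies.

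**Figure D2:**
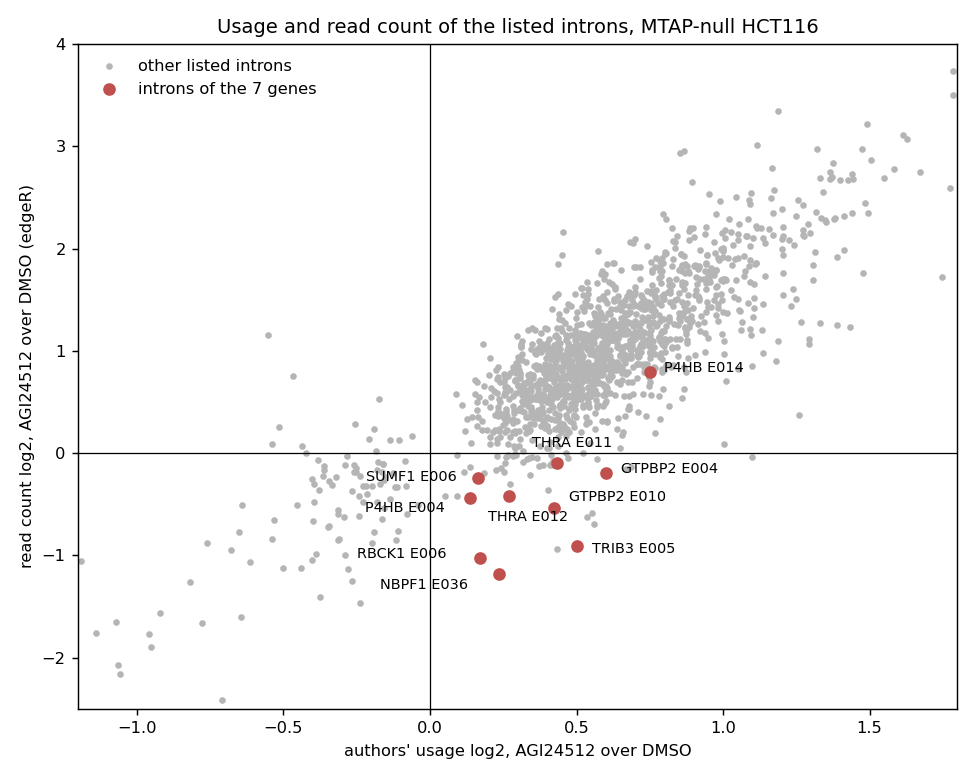
Each point is a listed intron of MTAP-null cells, with the authors' usage log2 value on the x axis and the edgeR log2 difference of the read count on the y axis, both AGI24512 over DMSO. The introns of the 7 genes are red and the others grey, and 1529 of the 1549 introns fall within the axes. Of the 10 red points, 9 sit in the lower right part (higher usage, lower read count), and P4HB E014 sits among the grey points at 0.75 and 0.80.

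Levels can be compared between introns only per length. With AGI24512 the normalised count per kb was highest in P4HB E004, at 1766, followed by RBCK1 E006 at 683, THRA E011 at 307, P4HB E014 at 293, THRA E012 at 272 and GTPBP2 E010 at 159. NBPF1 E036 had 48.7 per kb, GTPBP2 E004 25.96, TRIB3 E005 16.4 and SUMF1 E006 2.18. Among neighbours in this order, the libraries overlapped between THRA E011 and P4HB E014, between P4HB E014 and THRA E012, and between GTPBP2 E004 and TRIB3 E005.

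With DMSO the order was P4HB E004 at 2392 per kb, RBCK1 E006 at 1396, THRA E012 at 363, THRA E011 at 328, GTPBP2 E010 at 229 and P4HB E014 at 169. NBPF1 E036 had 110.6, TRIB3 E005 30.7, GTPBP2 E004 29.5 and SUMF1 E006 2.58. The libraries of GTPBP2 E010 and P4HB E014 overlapped, as did those of TRIB3 E005 and GTPBP2 E004. P4HB E014 thus stood below both THRA features in every DMSO library, while with AGI24512 it overlapped them. SUMF1 E006, the widest feature, had the lowest level per kb in both groups.

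A usage value and a read-count difference can be set against each other once they are on the same scale. The authors' log2 value is the log2 of the ratio of the usage scores they deposited for AGI24512 and DMSO, and those scores follow the square root of the count. The product of the 2 scores of an intron was 2.56 times its base mean at the median of the table (5th to 95th percentile 2.04 to 2.70). Multiplied by 2, the value is therefore a usage difference on the count scale. The read-count log2 minus this value is called here the implied change of the gene, that is, the change that the authors' fit implies for it. In the 210 genes with at least 2 listed introns, the implied changes from the introns of a gene had a median range of 0.00876 (log2), and 204 genes (97.1%) had a range under 0.1. With usage taken as deposited the median range was 0.197.

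On the count scale, the usage of P4HB E014 was higher by 1.5 (log2), that of GTPBP2 E004 by 1.2, TRIB3 E005 by 1.0, THRA E011 by 0.87 and GTPBP2 E010 by 0.85. THRA E012 had 0.54, NBPF1 E036 0.47, RBCK1 E006 0.34, SUMF1 E006 0.33 and P4HB E004 0.27. These are ratios between 1.21 for P4HB E004 and 2.83 for P4HB E014. The intron of TRIB3 thus had 0.533 times the reads and 2.01 times the share with AGI24512, relative to DMSO.

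The implied change of the gene was -1.91 (log2) for TRIB3, a ratio of 0.266, and -1.65 for NBPF1, a ratio of 0.318. It was -1.39 for GTPBP2 (-1.39 from E010 and -1.40 from E004) and -1.37 for RBCK1. THRA had -0.97 from E011 and -0.96 from E012, P4HB -0.71 from E004 and -0.70 from E014, and SUMF1 -0.57. Under TMM scaling the implied change was lower throughout, with -2.75 for TRIB3, -2.499 for NBPF1, -2.24 and -2.25 from the GTPBP2 introns E010 and E004, -2.21 for RBCK1 and -1.41 for SUMF1. The THRA introns E011 and E012 then gave -1.80 and -1.78, and the P4HB introns E004 and E014 -1.54 and -1.57. For P4HB, an intron with fewer reads and an intron with more reads gave nearly the same implied change of the gene. The calculation returns a value that introns of a gene share, as in the 97.1% of genes above, so nothing is read from this agreement.

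Over the 1287 genes of the table the median implied change was -0.17, with a 10th to 90th percentile range of -0.70 to 0.31. From the lowest, TRIB3 ranked 14, NBPF1 18, GTPBP2 23, RBCK1 25, THRA 59, P4HB 128 and SUMF1 195. All 7 member genes were below -0.5, as were 258 of the 1287 genes (20.05%), and 4 were below -1, as were 51 genes (3.96%). An intron with higher usage and fewer reads has a negative implied change by construction, so the direction is no result, and the deposited values give no error for it. No counts of whole genes were used here, so the implied change was not compared with a measured one.

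**Figure D3:**
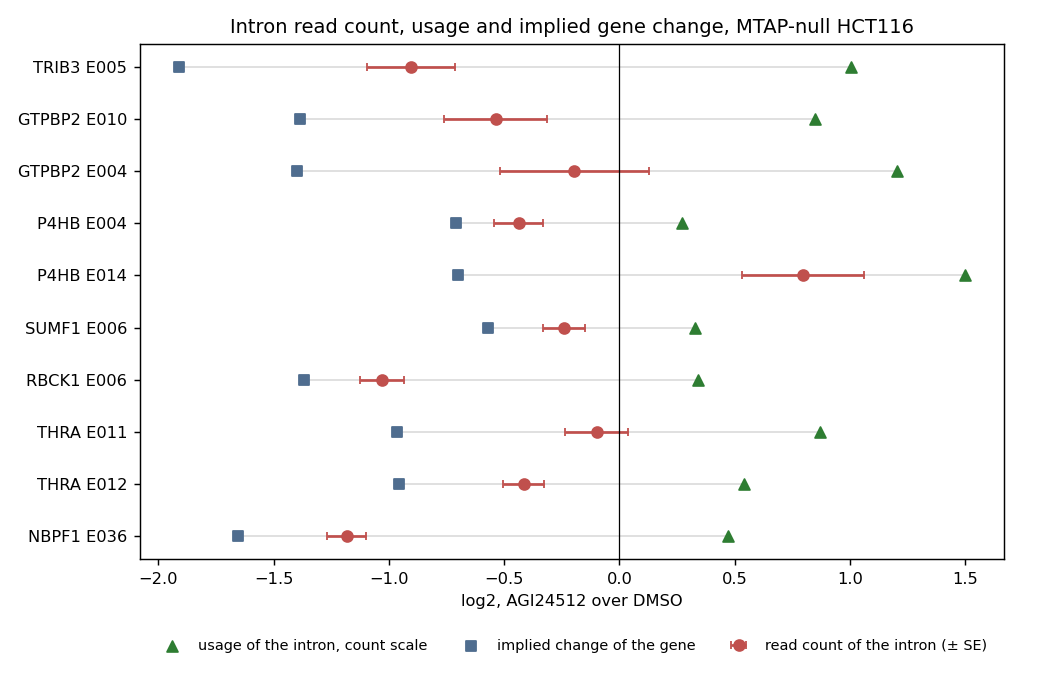
For each of the 10 introns in MTAP-null cells, in log2 of AGI24512 over DMSO on the x axis, the red circle is the read count of the intron (± standard error), the green triangle its usage on the count scale and the blue square the implied change of the gene. Circle equals square plus triangle. The squares of introns of the same gene coincide by the way they are calculated, at -0.71 and -0.70 for P4HB. The P4HB circles lie at -0.44 and 0.80.

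**Figure D4:**
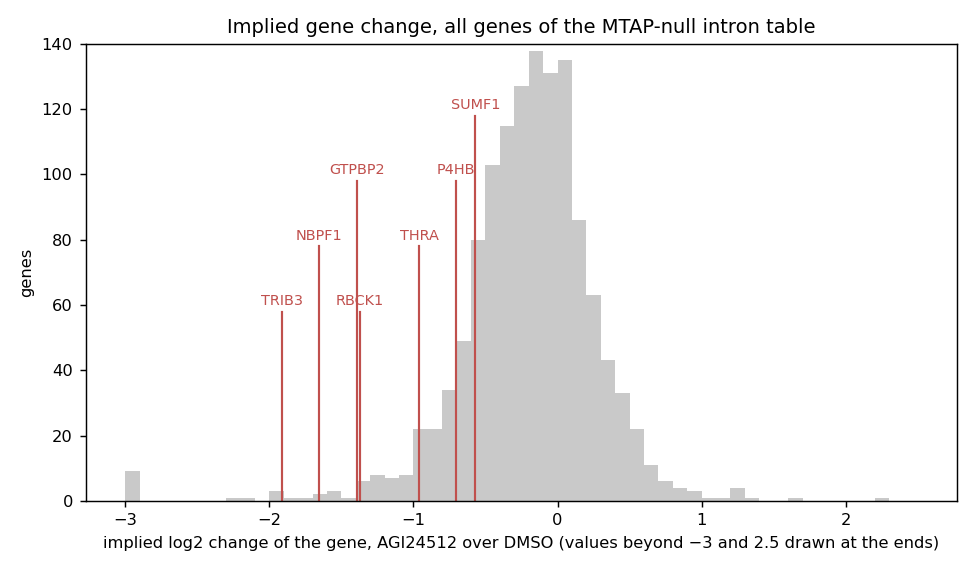
Number of genes (y axis) by implied log2 change of the gene, AGI24512 over DMSO (x axis, bins of 0.1), for the MTAP-null table, with the 7 member genes as red lines whose heights serve only to separate the names. The members lie between -1.91 (TRIB3) and -0.57 (SUMF1), left of the median of all genes at -0.17.

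Level, width and annotation were not named in the rule, and are given here beside those of the table, without a test. Level is not independent of the rule, since the DMSO count is a term of the read-count difference. The members' usage differences had a median log2 of 0.35, against 0.56 over the table, with GTPBP2 E004 (0.60) and P4HB E014 (0.75) above the latter. Whether small differences passed the authors' threshold mainly where counts were high was not tested. The members' median DMSO normalised count was 389.5, against 29.9 over the table, and 9 of 10 had a base mean above the table's median of 44.1. GTPBP2 E004 was the exception. Their median width was 818 bp, against 2097 bp, with 4 of 10 above the table's median. The 40 introns of other genes with higher usage and a lower read count had a median DMSO normalised count of 102.5 and a median width of 582 bp, so they too stood above the table in level and below it in width. Of the 10 members, 9 held bases that GENCODE 29 lists as exon of the same gene in some transcript, SUMF1 E006 being the exception, against 920 of 1444 introns (63.7%) in genes found in GENCODE 29. An exon of another gene lay in 2 of 10 (THRA E012 and SUMF1 E006), against 210 of 1444 (14.5%). Whether transcripts in which these bases are exon gave reads in these cells was not tested.

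The names in the authors' table credit an intron to the detained intron sets of Boutz, of Braun or of both. Of the members, 8 carried a Boutz name only and 2 both (GTPBP2 E010 and P4HB E004), and 0 a Braun name only. In the table these shares were 71.9%, 14.01% and 14.07%. THRA E011 also carried the name of an annotated transcript.

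Higher usage with a lower read count was found in 49 of the 1549 MTAP-null introns (3.16%), in 42 genes. The member genes held 9 of them, and 35 other genes held 40. Just inside the rule were THRA E011 at -0.10 (log2), GTPBP2 E004 at -0.20 and SUMF1 E006 at -0.24. The introns of other genes nearest to zero from below were FOXJ3 E004 and TNFRSF1A E011, both at -0.01, and ERRFI1 E003 at -0.02, and the members are thus not the whole of this class. In MTAP-WT cells 2 of 258 introns (0.775%) were of this kind.

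Beside the member genes, 5 introns with higher usage fell by edgeR. GAS5, a non-coding host of small nucleolar RNAs, fell in E008, with 579.6 ± 60.5 normalised counts with AGI24512 and 1107.2 ± 60.1 with DMSO (SD, n = 3 each; log2 change -0.93, standard error 0.098, edgeR adjusted p = 5.93e-06). It also fell in E006, by 0.69 (log2, edgeR adjusted p = 0.00133). RPL10 E004, in a gene of the large ribosomal subunit with many pseudogene copies that could share its reads, fell by 0.42 (edgeR adjusted p = 0.000715). DLGAP1 E009 fell by 0.41 (edgeR adjusted p = 0.000947). LINC00263 E004, of a non-coding gene, fell by 0.63 (edgeR adjusted p = 0.0306), but did not pass without AGI24512 replicate 3 (-0.39, edgeR adjusted p = 0.138), without DMSO replicate 1 (-0.49, 0.144) or without DMSO replicate 3 (-0.63, 0.0736). TMM scaling put these falls at -1.78 (log2) for GAS5 E008, -1.56 for GAS5 E006, -1.25 for RPL10, -1.26 for DLGAP1 and -1.47 for LINC00263 E004.

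The implied changes of these genes were -1.80 and -1.81 (log2) from the 2 GAS5 introns, -1.70 for LINC00263, -0.61 for RPL10 and -0.51 for DLGAP1. The introns nearest to the members' median point, at a usage of 0.35 and a read-count log2 of -0.43, were those of SPATA6 (E010, distance 0.0881), ZNF438 (E013, 0.147), BCAM (E016, 0.208), RPL10 (E004, 0.255) and LINC00263 (E002, 0.261). The distance is Euclidean in these values over the MTAP-null table. SPATA6 E010 averaged 26.2 normalised counts with AGI24512 and 33.9 with DMSO.

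No intron of the 7 genes was listed in the MTAP-WT table (0 of 258 introns), and 0 of the 558 events in the 10 rMATS tables of both genotypes were in these genes. The deposited tables hold only entries past the authors' threshold, so an absent entry does not show that an intron did not differ in MTAP-WT cells, where the members were not analysed here. The difference between the genotypes was therefore not tested. In the MTAP-WT table edgeR called 182 of 258 introns as risen with AGI24512 (70.5%) and 37 as fallen (14.3%).

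Genes that work with the members were examined as lists, and few had a listed intron. Their counts of introns that rose or fell stand against 77.6% and 4.65% of the whole MTAP-null table, or 251 and 253 introns of it with TMM scaling. Of 58 genes of the integrated stress response, which includes the factors upstream of TRIB3, 2 had an intron listed in MTAP-null cells. Of these introns 1 rose and 0 fell, or 0 and 1 with TMM scaling. SARS E015, of the seryl-tRNA synthetase gene, rose 1.68-fold (edgeR adjusted p = 0.00883), and its log2 change of 0.75 was -0.07 with TMM scaling. SLC38A2 E014, of an amino acid transporter gene, had a log2 difference of 0.47, short of the threshold (edgeR adjusted p = 0.0503). It was past the threshold once AGI24512 replicate 1 was left out (0.72, edgeR adjusted p = 4.2e-09), and 0.16 once AGI24512 replicate 3 was left out (edgeR adjusted p = 0.387). With TMM scaling SLC38A2 E014 was called as fallen (-0.40, edgeR adjusted p = 0.0364). Neither ATF4 nor DDIT3 was listed. In MTAP-WT cells EIF2AK4, the kinase GCN2 that senses uncharged tRNA, was the 1 listed gene, and its E029 rose (log2 change 1.70, edgeR adjusted p = 0.000225).

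Of 45 genes of protein folding in the endoplasmic reticulum, 5 had an intron listed under their symbol alone in MTAP-null cells. Of these 8 introns 6 rose and 0 fell, or 0 and 1 with TMM scaling. Of all listed introns 77.6% rose, so this count is near the background. P4HA2, the catalytic partner of P4HB in collagen prolyl 4-hydroxylase, rose in E004, with 55.8 ± 10.9 normalised counts with AGI24512 and 28.6 ± 6.52 with DMSO (SD, n = 3 each; log2 change 0.96, edgeR adjusted p = 0.00363). It also rose in E009 (1.55, edgeR adjusted p = 0.00386). With TMM scaling these values were 0.11 and 0.70, without a call. The median log2 change of the 8 introns was 0.96, against 0.95 over the table. Their median implied change was -0.85, against -0.17 over the table. Introns of a gene share this value, and P4HA2 entered with 3 introns and UGGT2 with 2. By gene it was -1.92 for P4HA3, -0.97 for UGGT2, -0.85 for P4HA2, -0.42 for SYVN1 and -0.16 for QSOX1. The P4HA3 intron averaged only 5.9 normalised counts with AGI24512 and 5.4 with DMSO. Left out of these values were 2 introns listed under joint symbols with PDIA5 and with TXNDC5, also folding genes. Their entries had implied changes of -0.16 and -0.53 (log2). Of 15 sulfatase genes and their activators, SUMF2, the paralog of SUMF1, was the 1 listed, and its E009 rose (log2 change 0.90, edgeR adjusted p = 0.00154), or 0.05 without a call with TMM scaling.

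Of 26 genes of linear ubiquitin and TNF signalling, 3 were listed in MTAP-null cells and all 3 introns rose (2 with TMM scaling), in a table where 77.6% did. TAB3, an adaptor that binds ubiquitin chains, rose in E007 (log2 change 1.83, edgeR adjusted p = 0.00049, and 0.99 with TMM scaling), and MAP3K7, the kinase TAK1 that TAB3 recruits, rose in E009 (0.90, edgeR adjusted p = 0.00834, and 0.04 without a call with TMM scaling). TAB3 E007 also rose in MTAP-WT cells (1.11, edgeR adjusted p = 0.003, and 0.54 without a call with TMM scaling). The RBCK1 partners RNF31 and SHARPIN were not listed. Of 36 nuclear receptors and coregulators, 4 were listed in MTAP-null cells, with 3 introns that rose and 0 that fell (1 and 0 with TMM scaling), again near the 77.6% of the table. They include NCOA6, a coactivator (log2 change 2.05, edgeR adjusted p = 0.000272), and NR1H2, the oxysterol receptor LXR beta (1.19, edgeR adjusted p = 0.00668, and 0.35 without a call with TMM scaling).

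Of 17 ribosome rescue genes, ASCC3, a helicase that splits collided ribosomes, was the 1 listed in MTAP-null cells, and its E044 rose by 0.66 (log2, edgeR adjusted p = 0.00165), a value that was -0.19 with TMM scaling. Of the other NBPF genes, NBPF3 E006 rose in MTAP-null cells by 0.33 (edgeR adjusted p = 0.0356), but fell by 0.52 with TMM scaling. That rise did not pass without AGI24512 replicate 2 (edgeR adjusted p = 0.0859), AGI24512 replicate 3 (0.104), DMSO replicate 2 (0.141) or DMSO replicate 3 (0.0981). In MTAP-WT cells NBPF3 E006 rose by 0.34 (edgeR adjusted p = 0.0131), did not pass without DMSO replicate 3 (0.23, edgeR adjusted p = 0.174) and was -0.23 with TMM scaling. NBPF12 E005 fell by 1.08 in MTAP-WT cells (edgeR adjusted p = 0.000804). None of the lists for folding, ribosome rescue, nuclear receptors or sulfatases had an intron listed in MTAP-WT cells. In MTAP-null cells, 1 of the 20 list introns had higher usage with a lower read count, an intron of the folding list.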

How the data were processed

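Poly-A RNA was sequenced in 12 libraries, and the tables of the authors' splicing comparisons were analysed. The deposited values are raw read counts per intron and library (DEXSeq, per the file headers), a signal (base mean), which the authors averaged over libraries after division by size factors, a usage score per group deposited on a scale that follows the square root of the count, and the authors' log2 fold of the scores, whose sign was turned to AGI24512 over DMSO. The authors' adjusted p-value was under the threshold of 0.05 for every listed intron (highest 0.0499 in MTAP-null). The rMATS tables hold the authors' p-values and a deposited score of inclusion differences. For the aligner, the versions of tools and the build, the entry is: not given in the sources used here.

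Size factors were recovered from the deposited base means. The quasi-likelihood test of edgeR 4.0.16 in R 4.3.3 compared AGI24512 with DMSO in each genotype, and p-values were adjusted by Benjamini-Hochberg over the whole table. Each table was fitted alone. A normalised count is a count divided by its size factor, and edgeR was tested on simulated data. TMM scaling, DESeq2 1.42.0, a filter at a mean of 20 counts, a replicate block and leaving out each library were the alternatives. Introns were placed in GENCODE 29 (GRCh38), also the source of the sequences.

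The members and lists were chosen with earlier results of these data known. Named are all members, the 5 introns nearest to them, those at the edge of the rule, the introns of the same class that fell, and up to 2 introns per list with the lowest authors' adjusted p. Introns with 2 gene symbols were kept out of the lists. Only listed introns entered the fits, so counts of calls describe the authors' selection.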

Additional observations from a re-analysis of the deposited data

How the results depend on the processing

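The scaling between libraries sets most values. In MTAP-null cells, 251 introns rose and 253 fell with TMM scaling, and 96 rose and 228 fell in DESeq2 with its own size factors. In MTAP-WT cells these were 60 and 68 with TMM, and 30 and 67 in DESeq2. Both assume that most listed introns did not move. Introns with higher usage and a lower read count numbered 569 with TMM scaling, 611 in DESeq2, 25 at an authors' adjusted p under 0.01 and 12 where only a fall past the edgeR test counts. The member median of the read-count log2 was -1.26 with TMM and -1.29 in DESeq2.

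Signs turned, with TMM and DESeq2's own size factors, for P4HB E014 (-0.074 and -0.12), SARS (-0.075 and -0.10), SLC38A2 (-0.40 and -0.44), ASCC3 (-0.19 and -0.22) and NBPF3 (-0.52 and -0.55 in MTAP-null, -0.23 and -0.25 in MTAP-WT). GTPBP2 E004 turned to 0.05 without AGI24512 replicate 1 and 0.14 without DMSO replicate 2, over a range of -0.42 to 0.14 with each library left out. With 1 library left out, 1005 to 1281 introns rose and 62 to 71 fell in MTAP-null, 169 to 180 and 34 to 39 in MTAP-WT, the class held 44 to 55 introns, 8 to 9 members had lower read counts, and their median was -0.44 to -0.40.

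Replicate numbers did not pair the libraries: deviations of same-numbered MTAP-null libraries correlated at 0.0556, 0.0397 and 0.0162, and MTAP-WT ones at -0.0968, 0.0524 and 0.0638. With the replicate block, 1215 rose and 72 fell in MTAP-null, and 178 and 37 in MTAP-WT. With DESeq2's own size factors NCOA6, EIF2AK4, TAB3 (both genotypes), both named P4HA2 introns, NR1H2, SUMF2 and MAP3K7 lost their calls. SARS, ASCC3 and NBPF3 in MTAP-WT lost theirs as well. In that setting NBPF3 in MTAP-null was past the threshold as fallen (-0.55, DESeq2 adjusted p = 0.00642). It lost its call in DESeq2 with the recovered size factors. With the block, SLC38A2 changed its call (edgeR adjusted p = 0.0257), and no other named list intron nor any of the 5 fallen introns of other genes did. No drug-by-genotype term, no comparison of untreated genotypes, no MTAP-WT value and no rMATS filter could be had for the members, since none is listed in the MTAP-WT or rMATS tables. Sequencing depth is unknown, and listed introns with few reads, such as GTPBP2 E004, carry the widest errors.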
